A study of Mus musculus with 2 samples.

Results

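The collagen chains of the newborn mouse hindbrain were taken as all genes whose symbol has the form of Col, a number, a and a number, the standard naming of collagen chain genes. Of the 43346 mouse genes in the gene tables, 44 had such a symbol: 11 fibrillar chains, the 6 chains of basement membrane type IV collagen, and 27 other chains. The data are 2 RNA-seq libraries from hindbrain of the strain B6NCrl at postnatal day 0, labelled pup 1 (replicate 1) and pup 3 (replicate 2). The input of each library was 13 pg of RNA above 200 nt, 1 cell-equivalent in the labels' terms. RNA was extracted with mirVana, ERCC spike-in RNAs were added, no treatment or altered gene is named, and sex was not collected. Both pups form 1 group, both carry technical replicate 1, and the labels give them the same donor record, so that the spread between them may not measure the spread between animals. With 1 library for each pup, differences between them have no replicate check, and no test between groups was possible. The RNA came from the mixed cells of the tissue, where fewer cells of a type and less RNA per cell cannot be told apart.

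Collagens are secreted proteins in which chains wind around each other into a rope-like helix, and most types need chains from more than 1 gene. Fibrillar collagens build the strong fibrils of connective tissue, type IV collagen builds the sheet-like network of basement membranes, and the remaining families decorate fibrils, form finer filaments or networks, or stay anchored in the cell membrane. In brain tissue, fibrillar collagen is mainly known from the meninges and the walls of larger vessels, and type IV collagen from the basement membrane around capillaries and beneath the pia.

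Expected counts summed to 35462381 for pup 1 and 29866728 for pup 3. ERCC spike-ins took 2.31% and 2.18% of them and mitochondrial genes 3.33% and 3.11%. Levels are given in TPM, a share of transcripts scaled by length, rescaled here over nuclear genes. All 6 neuronal and all 6 astrocyte and radial glia markers were detected in each pup. Of 8 hindbrain genes 3 were detected in both pups (Hoxa2, Hoxa3 and Hoxb3) and 4 in neither (En2, Hoxb2, Hoxb4 and Atoh1), while of 5 forebrain genes Neurod6 was detected in both and Emx1 and Emx2 stood at 0.

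A chain counts as detected when its expected count reached 5. By this measure 20 of the 44 collagen chains were detected in pup 1 and 20 in pup 3, but they were different sets. Both pups had 13 chains (29.5%), beside 37.8% of all nuclear protein-coding genes. At least 1 pup had 27 chains (61.4%), beside 55.5%. Pup 1 had 7 chains that pup 3 lacked (background 12.3%), and pup 3 had 7 that pup 1 lacked (background 5.45%). Of the 27 detected chains, 14 were therefore seen in 1 pup (51.9%), beside 31.9% of the detected protein-coding genes.

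Summed over all chains, collagen reached 316 TPM for pup 1 and 337 TPM for pup 3. The collagen share of nuclear counts was 0.0893% for pup 1 (0.0882 to 0.0903%, 95% Wilson interval) and 0.0868% for pup 3 (0.0857 to 0.0879%). The total was thus close in the pups while its composition was not. The 3 highest chains held 43.9% of collagen TPM in pup 1 and 48.2% in pup 3. Detected chains had a median level of 12.3 TPM (pup 1) and 11.5 TPM (pup 3), below the medians of detected protein-coding genes at 24.3 and 33.5 TPM. Counting error alone enters these intervals, those given for ratios below, and the floor of 3 counts used below. Reads made by amplification are not separate molecules, so the intervals are too narrow. For the same reason, folds given as at least a value bound reads and not molecules, and so does the floor. That floor equals 0.0290 TPM for pup 1 and 0.0328 TPM for pup 3 on a transcript of 5000 nt.

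**Figure D1:**
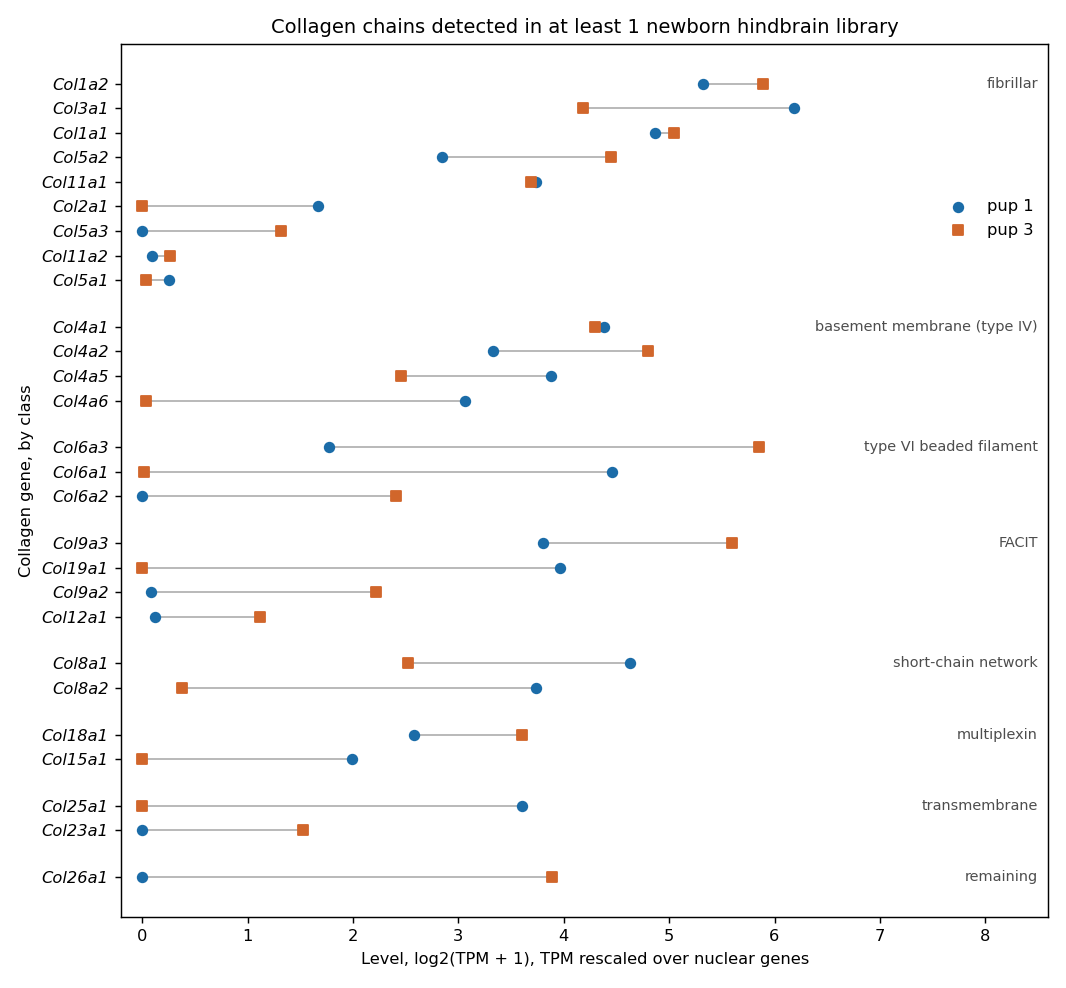
Level of each of the 27 detected collagen chains in pup 1 (circles) and pup 3 (squares), as log2(TPM + 1), grouped by class, with a grey line joining the pups. Col1a1, Col11a1 and Col4a1 lie close together in the pups, while chains such as Col6a1, Col19a1, Col25a1 and Col26a1 stand at or near 0 in 1 of them.

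The highest mean level belonged to Col1a2, the α2 chain of type I collagen (ENSMUSG00000029661.12, chr6:4504814-4541544, plus strand). It had 4250 expected counts and 39.1 TPM in pup 1 and 5485 counts and 58.5 TPM in pup 3 (mean 48.8 ± 13.7 TPM, SD, n = 2). Its partner Col1a1, the α1 chain of the same collagen (ENSMUSG00000001506.10, chr11:94936224-94953042), had 3391 counts and 28.1 TPM in pup 1 and 3418 counts and 32.1 TPM in pup 3 (30.1 ± 2.84 TPM). Type I collagen was thus present with both of its chains in both pups. The Col1a2 transcript level exceeded that of Col1a1 1.39 times in pup 1 and 1.82 times in pup 3, although the type I molecule usually holds more α1 than α2 chains.

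Col3a1, the sole chain of type III collagen, which co-assembles with type I in soft tissues (ENSMUSG00000026043.14, chr1:45311538-45349706), had 4293 counts and 71.7 TPM in pup 1 and 1707 counts and 17.1 TPM in pup 3 (44.4 ± 38.6 TPM). It was the highest chain of pup 1, 4.19-fold above pup 3 in TPM and 2.13-fold in share of counts. Part of that gap follows the transcript to which reads were assigned. In pup 1 the 737 nt transcript Col3a1-205 took 53.4% of the gene's TPM with 506 counts, while in pup 3 the full-length Col3a1-201 of 5564 nt took 99.7%. Counts divided by the length of the longest listed transcript gave 50.2 and 23.3 on a TPM-like scale, a 2.15-fold difference in the same direction.

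Col1a2 and Col3a1, the chains of highest mean level, are shown with the 300 bases around their RefSeq start (250 before, 50 after, GRCm38.p6). Capitals mark matches, on either strand, to 3 letter strings known from many promoters. They are CCAAT, the core of a common upstream element, the GC-rich string GGGCGG, bound by Sp1-type factors, and the core promoter string TATAAA. The windows differ in base composition, with 61.0% G and C for Col1a2 and 37.7% for Col3a1.
Col1a2, chr6:4505368-4505667, plus strand: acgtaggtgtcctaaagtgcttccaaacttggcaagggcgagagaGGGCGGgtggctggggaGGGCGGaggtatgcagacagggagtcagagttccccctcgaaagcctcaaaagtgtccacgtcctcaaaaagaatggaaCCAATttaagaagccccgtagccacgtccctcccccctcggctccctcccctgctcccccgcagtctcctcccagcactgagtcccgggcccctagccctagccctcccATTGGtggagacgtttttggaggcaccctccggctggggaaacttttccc
Col3a1, chr1:45311288-45311587, plus strand: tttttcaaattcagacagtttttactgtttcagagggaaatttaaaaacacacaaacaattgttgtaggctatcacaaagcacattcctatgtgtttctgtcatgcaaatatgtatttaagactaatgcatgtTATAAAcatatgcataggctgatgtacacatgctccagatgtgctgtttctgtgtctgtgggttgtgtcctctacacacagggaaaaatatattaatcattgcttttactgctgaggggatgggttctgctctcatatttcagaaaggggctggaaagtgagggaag
The Col1a2 window held 2 matches to CCAAT and 2 to GGGCGG and none to TATAAA. The Col3a1 window held 1 match to TATAAA and none to the others. The RefSeq start of Col1a2 lies downstream of the annotated gene start given above. A match is a description of the letters, not evidence of a bound factor.

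Over all collagen promoters, 38 windows were found for 35 of the 44 chains. GGGCGG occurred in 23 of the 38 (60.5%), beside 35.7% of 32851 promoters of the same length. It was present in 17 of 23 windows of detected chains and in 6 of 15 windows of undetected ones. The shares for promoters of all detected and all undetected genes were not computed. The split therefore cannot be read as particular to collagen chains. CCAAT occurred in 13 of 38 collagen windows (34.2%), beside 37.4% of all, and TATAAA in 5 of 38 (13.2%), beside 13.6%. None of the 3 strings contains another, and the shares carry no test.

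Type V and type XI chains are minor fibrillar collagens that set the diameter of type I and type II fibrils. Col5a2 (ENSMUSG00000026042.12), near Col3a1 on chromosome 1, had 838 counts and 6.20 TPM in pup 1 and 1419 counts and 20.9 TPM in pup 3. The 3.36-fold higher TPM in pup 3 shrank to 1.98-fold per longest transcript. In pup 3 the retained-intron transcript Col5a2-203 of 1970 nt took 55.6% of the gene's TPM. Its usual partner Col5a1 was near the limit, with 33 counts (0.192 TPM) in pup 1 and 3 counts (0.0223 TPM) in pup 3, a ratio of count shares of 9.30 with a 95% counting interval of 2.92 to 47.4. Col5a3 stood at 0 in pup 1 and at 164 counts (1.5 TPM) in pup 3, at least 64.7-fold higher there in share of counts against a floor of 3 counts in the library. The dominant type V transcript was therefore Col5a2 in both pups.

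Col11a1 (ENSMUSG00000027966.15), the type XI α1 chain, was among the most even members, with 1342 counts and 12.3 TPM in pup 1 and 958 counts and 11.9 TPM in pup 3 (12.1 ± 0.272 TPM). The transcripts behind it differed. Beside Col11a1-201, which took 54.9% and 43.6% of the gene's TPM, pup 1 had Col11a1-204, annotated as subject to nonsense-mediated decay, at 45.1%, and pup 3 had Col11a1-202, a shorter coding transcript, at 56.4%. Col11a2 had 3 counts in pup 1 against 22 in pup 3 (0.0677 and 0.201 TPM), a ratio of 8.68 with an interval of 2.61 to 45.3. Col2a1, the type II chain of cartilage and of embryonic epithelia, had 215 counts (2.18 TPM) in pup 1 and 0 in pup 3, at least 60.6-fold higher in pup 1. The last fibrillar members, Col24a1 and Col27a1, were at 0 in both.

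By TPM, type IV collagen was the class whose sum differed least between the pups, at 49.9 TPM in each (5990 and 5699 counts), which did not hold for counts scaled to the library total (CPM, with or without TMM factors) or for counts per longest transcript. Each of its detected chains other than Col4a1 differed by 2.96-fold or more. Col4a1 (ENSMUSG00000031502.9, chr8:11198423-11312826, minus strand), the α1 chain of the common vascular and pial network, had 2676 counts and 19.8 TPM in pup 1 and 2213 counts and 18.6 TPM in pup 3 (19.2 ± 0.869 TPM). Col4a2 (ENSMUSG00000031503.9, chr8:11312805-11449287, plus strand), which supplies the α2 chain of the same molecule, had 819 counts and 9.06 TPM in pup 1 and 3113 counts and 26.8 TPM in pup 3 (17.9 ± 12.6 TPM). It was 2.96-fold higher in pup 3 by TPM, 4.50-fold by share of counts and 4.44-fold per longest transcript. Col4a1 exceeded Col4a2 2.19 times in pup 1, and Col4a2 exceeded Col4a1 1.44 times in pup 3. In pup 1, 35.0% of the Col4a2 TPM lay in Col4a2-203, a retained-intron transcript of 764 nt with 43.6 counts.

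The type IV genes are arranged head to head in pairs, and 3 such pairs were found among the collagens within 2000 nt. The annotated starts of Col4a1 and Col4a2 overlap by 22 nt, those of Col4a4 and Col4a3 on chromosome 1 lie 72 nt apart, and those of Col4a6 and Col4a5 on chromosome X lie 1309 nt apart. The available RefSeq start windows of these pairs are printed because the genes of each pair start close together. In both detected pairs the ratio of the partners differed between the pups, as given beside each gene. Capitals mark the same 3 strings as above.
Col4a1, chr8:11312777-11313076, minus strand: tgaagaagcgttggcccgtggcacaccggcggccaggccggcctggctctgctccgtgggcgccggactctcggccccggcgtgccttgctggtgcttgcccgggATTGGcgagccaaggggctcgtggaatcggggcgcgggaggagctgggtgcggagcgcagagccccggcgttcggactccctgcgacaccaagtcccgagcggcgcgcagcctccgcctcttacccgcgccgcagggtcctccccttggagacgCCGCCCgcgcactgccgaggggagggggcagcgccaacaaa
Col4a2, chr8:11312555-11312854, plus strand: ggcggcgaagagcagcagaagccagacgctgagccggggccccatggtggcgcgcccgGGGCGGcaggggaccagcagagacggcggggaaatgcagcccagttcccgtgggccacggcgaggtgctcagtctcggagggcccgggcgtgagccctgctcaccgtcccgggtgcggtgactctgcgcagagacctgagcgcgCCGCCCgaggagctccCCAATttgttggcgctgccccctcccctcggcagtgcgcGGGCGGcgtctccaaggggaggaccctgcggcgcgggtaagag
Col4a4, chr1:82586800-82587099, minus strand: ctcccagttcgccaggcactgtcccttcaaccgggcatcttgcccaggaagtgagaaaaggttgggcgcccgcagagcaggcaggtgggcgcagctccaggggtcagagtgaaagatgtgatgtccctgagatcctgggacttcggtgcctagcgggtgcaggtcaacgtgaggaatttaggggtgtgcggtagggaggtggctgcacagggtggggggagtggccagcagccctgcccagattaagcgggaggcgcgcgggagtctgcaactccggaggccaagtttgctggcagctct
Col4a6, chrX:141474027-141474326, minus strand: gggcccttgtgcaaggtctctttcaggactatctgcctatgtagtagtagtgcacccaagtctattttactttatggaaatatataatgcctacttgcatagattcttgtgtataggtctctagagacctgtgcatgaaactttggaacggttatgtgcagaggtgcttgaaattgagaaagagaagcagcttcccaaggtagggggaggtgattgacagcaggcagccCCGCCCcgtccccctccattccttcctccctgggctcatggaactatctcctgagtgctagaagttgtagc
Col4a5, chrX:141475169-141475468, plus strand: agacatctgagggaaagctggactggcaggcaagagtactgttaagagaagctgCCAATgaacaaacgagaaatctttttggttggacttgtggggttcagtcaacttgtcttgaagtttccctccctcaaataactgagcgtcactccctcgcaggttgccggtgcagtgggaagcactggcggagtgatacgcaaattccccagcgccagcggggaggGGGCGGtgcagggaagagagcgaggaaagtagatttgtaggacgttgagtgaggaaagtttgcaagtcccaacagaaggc
The windows of Col4a1 and Col4a2 share 78 bases, read from opposite strands, and hold 74.0% and 73.7% G and C. Col4a1 has 1 match to CCAAT and 1 to GGGCGG, and Col4a2 has 1 and 3. Col4a5 has 1 of each, Col4a6 has 1 match to GGGCGG, and Col4a4 has none of the 3 strings in its window.

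The second pair, Col4a3 and Col4a4, whose chains replace the common network in the kidney filter, stood at 0 counts in both pups. Col4a5, on the X chromosome, had 1498 counts and 13.7 TPM in pup 1 and 372 counts and 4.48 TPM in pup 3, a 3.06-fold difference by TPM. Its neighbour Col4a6, the α6 chain that joins α5 in epithelial and smooth muscle basement membranes, had 997 counts (7.35 TPM) in pup 1 and 1 count (0.0223 TPM) in pup 3. The ratio of count shares for Col4a6 was 843, with a counting interval of 151 to 33321. Both X-linked chains were thus higher in pup 1 and the chromosome 8 chain Col4a2 was higher in pup 3, in sums that came out level.

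Type VI collagen forms beaded filaments next to cells from an α1, an α2 and a larger chain. Neither library held all of the classical chains. Col6a1 (ENSMUSG00000001119.7, chr10:76708792-76726168) had 1742 counts and 21.0 TPM in pup 1 and 1 count (0.0112 TPM) in pup 3, a ratio of 1473 with an interval of 264 to 58194. Col6a2 (ENSMUSG00000020241.9, chr10:76595762-76623630) was the reverse, with 0 counts in pup 1 and 302 counts (4.30 TPM) in pup 3, at least 119-fold higher there. The library of pup 1 therefore held no count of α2 and that of pup 3 a lone count of α1.

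Col6a3 (ENSMUSG00000048126.12), the large α3 chain, had 409 counts and 2.42 TPM in pup 1 and 796 counts and 56.7 TPM in pup 3 (29.5 ± 38.4 TPM). Its TPM was 23.4-fold higher in pup 3, whereas its share of counts was 2.30-fold higher and its counts per longest transcript 2.27-fold higher. The deposited gene length, a mean over transcripts weighted by their share, was 8272 nt in pup 1 (81.9% of the longest transcript) and 868 nt in pup 3 (8.59%). In pup 1 the transcript Col6a3-202 of 9001 nt took 90.2% of the gene's TPM. In pup 3 the 476 nt transcript Col6a3-207 took 94.1% with 367 counts, so that the high TPM there rests on reads assigned to a short model. The remaining members, Col6a4, Col6a5 and Col6a6, were at 0 in both pups.

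**Figure D2:**
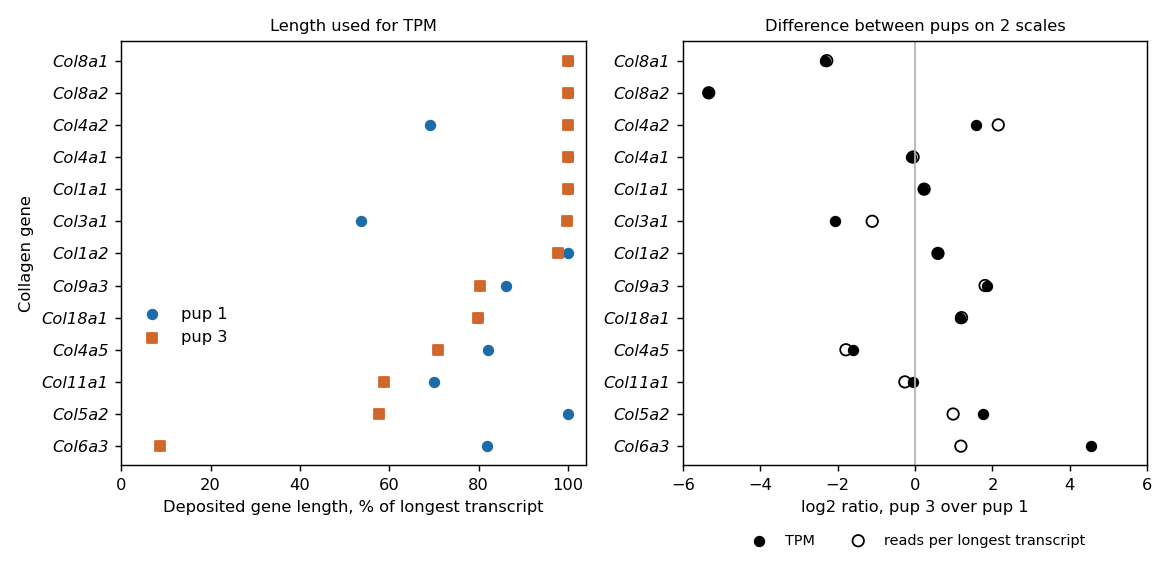
Left, the gene length used for TPM in each pup as a percentage of the longest listed transcript, for the 13 chains detected in both pups; right, the log2 ratio of pup 3 over pup 1 by TPM (filled) and by counts per longest transcript (open). Col6a3 falls from 81.9% to 8.59% of its longest transcript and its ratio shrinks from 23.4-fold to 2.27-fold, while Col8a1, Col8a2, Col1a1 and Col4a1 hold 100% in both pups.

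Between the pups the deposited length differed by at least 1.5-fold for 3 of the 13 chains detected in both (23.1%: Col3a1, Col5a2 and Col6a3), beside 14.7% of 8102 protein-coding genes detected in both. Collagen transcripts are long. The longest listed transcript had a median of 6083.5 nt over the 44 chains and of 2568 nt over protein-coding genes, and the part of length in these differences was not tested beyond the recomputed values given here.

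The fibril-associated collagens (FACIT) sit on the surface of fibrils. Col9a3, the α3 chain of type IX collagen (ENSMUSG00000027570.11, chr2:180597790-180622189), had 679 counts and 13.0 TPM in pup 1 and 2038 counts and 47.5 TPM in pup 3 (30.2 ± 24.4 TPM), 3.66-fold higher in pup 3. It overlaps Tcfl5 on the opposite strand by 234 nt, and Tcfl5 had 0 counts in pup 1 against 92.7 in pup 3. Col9a2 had 3 counts (0.0565 TPM) in pup 1 and 188 counts (3.64 TPM) in pup 3, a ratio of 74.1 with an interval of 25.0 to 363. Col9a1, whose chain completes the type IX molecule, was at 0 in both pups. Both detected type IX chains were thus higher in pup 3, and Col9a3 far exceeded its partners in each pup.

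Col19a1 (chr1:24261890-24587472), a chain known from interneurons and from basement membrane zones, had 1221 counts and 14.6 TPM in pup 1 and 0 in pup 3, at least 344-fold higher in pup 1. Col12a1, a fibril-associated chain of tendon and dense tissue, reached 3 counts in pup 1 against 36 in pup 3 (0.0903 and 1.17 TPM), a ratio of 14.2 with an interval of 4.49 to 72.1. All Col12a1 reads were assigned to a transcript of 1784 nt, and counts per longest transcript gave 0.0170 and 0.238. The other FACIT members, Col14a1, Col16a1, Col20a1 and Col22a1, were at 0 in both.

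Type VIII collagen is a short-chain network former known from endothelial and smooth muscle matrix. Col8a1 (ENSMUSG00000068196.4, chr16:57624258-57754737) had 2464 counts and 23.7 TPM in pup 1 and 434 counts and 4.74 TPM in pup 3, 5.00-fold higher in pup 1. Its partner Col8a2 had 1081 counts (12.3 TPM) in pup 1 and 23 counts (0.301 TPM) in pup 3, 40.9-fold higher in pup 1 by TPM and 39.7-fold by share of counts. Both type VIII chains moved in the same direction. All reads of Col8a2 were assigned to 1 full-length transcript of its 2 in both pups. Col8a1 has only 1 listed transcript, so its assignment was fixed by the annotation. Col10a1, the short chain of hypertrophic cartilage, was at 0 in both.

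The multiplexins carry anti-angiogenic fragments at their ends and lie in vascular and epithelial basement membranes. Col18a1, the source of endostatin, had 513 counts and 4.99 TPM in pup 1 and 1010 counts and 11.1 TPM in pup 3, 2.23-fold higher in pup 3. It overlaps Slc19a1 on the opposite strand over 8825 nt, and Slc19a1 had 3630 counts in pup 1 against 326 in pup 3. No source used here says whether counting used strand, so reads in that overlap cannot be told apart. Col15a1, the related chain of capillary basement membranes, had 120 counts (2.97 TPM) in pup 1 and 0 in pup 3, at least 33.8-fold higher in pup 1. Of the Col15a1 TPM in pup 1, 65.5% lay in Col15a1-207, a transcript of 405 nt with 12.3 counts. Counts per longest transcript gave Col15a1 1.51 in pup 1.

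Of the membrane-anchored collagens, Col25a1 (chr3:130131501-130599877), a neuronal chain first found in amyloid plaques, had 1276 counts and 11.1 TPM in pup 1 and 0 in pup 3, at least 359.5-fold higher in pup 1. Col23a1 had 0 counts in pup 1 and 190 counts (1.88 TPM) in pup 3, at least 74.9-fold higher there. Col13a1 and Col17a1, found at muscle synapses and in skin attachment, were at 0 in both. Col26a1 (chr5:136741759-136883209), an atypical secreted chain, had 0 counts in pup 1 and 663 counts (13.8 TPM) in pup 3, at least 261-fold higher in pup 3. Col7a1, the anchoring fibril chain of skin, and Col28a1 were at 0 in both pups.

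By mean level, the order began with Col1a2, Col3a1, Col9a3, Col1a1, Col6a3, Col4a1 and Col4a2. Every step between neighbours in that order was smaller than the larger SD of the 2 chains. The pups ranked the chains differently. In pup 1 the highest was Col3a1 and in pup 3 it was Col1a2, followed by Col6a3, whose place depends on the short transcript model described above.

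Among chains with at least 50 counts in 1 library, 11 of 24 differed by more than 4-fold after a pseudocount of 1 TPM (45.8%), beside 39.8% of 11245 protein-coding genes. Higher in pup 1 were 7 chains (Col3a1, Col4a6, Col6a1, Col8a1, Col8a2, Col19a1 and Col25a1), beside 23.6% of genes. Higher in pup 3 were 4 (Col6a2, Col6a3, Col9a2 and Col26a1), beside 16.2%. Counts scaled by library in place of TPM removed Col3a1 and Col6a3 from the 11, and by counts per library total (CPM) 14 chains passed, with Col2a1, Col4a2, Col5a3, Col15a1 and Col23a1 added. By class, the 11 were 9 of 13 chains of the other class, 1 of 7 fibrillar chains and 1 of 4 type IV chains, beside the 39.8% of protein-coding genes. These class counts depended on the setting. The fibrillar chains Col2a1 (2.18 TPM in pup 1) and Col5a3 (1.50 TPM in pup 3) were at 0 in the other pup. They were too low to pass 4-fold with the pseudocount of 1 TPM. By CPM both passed, as did the type IV chain Col4a2, and the only fibrillar chain of the 11, Col3a1, did not.

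Some chains at a moderate level in 1 library were undetected in the other. Of 10 chains at 10 to 30 TPM in pup 1, Col6a1, Col19a1 and Col25a1 were undetected in pup 3, beside 30.6% of protein-coding genes at that level. Of 7 such chains in pup 3, Col26a1 was undetected in pup 1, beside 17.1%. The collagen counts of missing chains were near those backgrounds. As a log2 ratio of pup 3 to pup 1, the median was 0.17 over the 27 detected chains and -0.16 over 11905 detected protein-coding genes, and 0.19 over 13 chains and 0.14 over 8102 genes detected in both pups. Of the 27 chains, 13 were higher in pup 1 and 14 in pup 3.

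**Figure D3:**
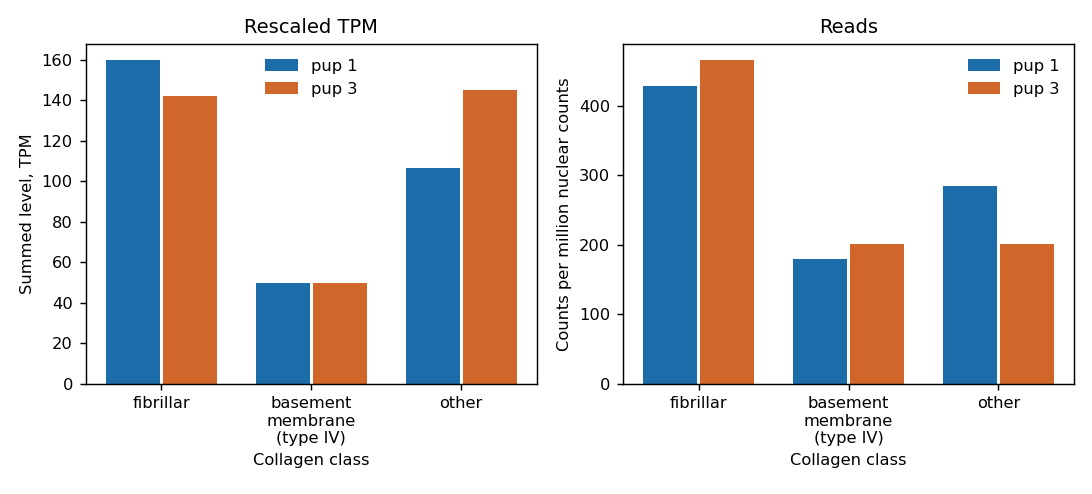
Summed level of the fibrillar, type IV and other collagen chains in pup 1 and pup 3, in rescaled TPM (left) and in counts scaled to the library's nuclear total (CPM, right), each axis starting at 0. The other class is higher in pup 3 by TPM (106 and 145) and higher in pup 1 by counts (284 and 201).

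By class, fibrillar chains summed to 160 TPM in pup 1 against 142 TPM in pup 3 (151 ± 12.4 TPM), with 14365 and 13176 counts. They held 50.6% and 42.2% of collagen TPM, type IV chains 15.8% and 14.8%, and the other chains 33.6% and 43.0%. The type IV sums, level by TPM, were 1.13-fold higher in pup 3 in counts scaled to the nuclear total (CPM). The fibrillar difference was small and depended on the scale. It was 1.12-fold higher in pup 1 by TPM and 1.09-fold higher in pup 3 by CPM. The other class reached 106 TPM in pup 1 against 145 TPM in pup 3 (126 ± 27.5 TPM), 1.37-fold higher in pup 3, but its counts of 9511 and 5681 made it 1.42-fold higher in pup 1 by CPM and 1.19-fold higher in pup 1 per longest transcript.

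Within the other class, type VI chains held 23.4 TPM in pup 1 against 61.0 TPM in pup 3, of which Col6a3 made up 56.7 TPM in pup 3. FACIT chains held 27.7 and 52.3 TPM. Short-chain collagens went the other way, with 36.1 TPM in pup 1 against 5.05 TPM in pup 3, a 7.15-fold difference carried by both type VIII chains. Multiplexins held 7.96 and 11.1 TPM and membrane-anchored chains 11.1 and 1.88 TPM.

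**Figure D4:**
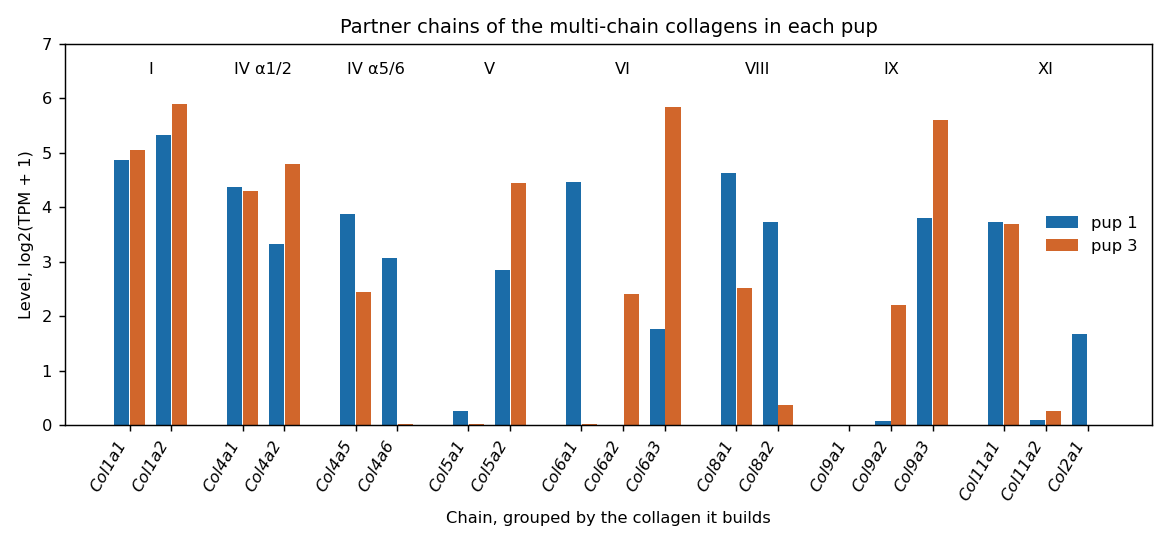
Level of each chain, as log2(TPM + 1) in pup 1 and pup 3, grouped by the collagen it builds. Types I, IV α1/α2 and VIII show both chains in both pups, whereas type VI lacks Col6a2 in pup 1 and Col6a1 in pup 3 at the detection threshold.

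The chains can also be read by the molecules they build. Type I, type IV of the α1 and α2 chains, and type VIII had all their chains detected in both pups. Type III needs Col3a1 alone and had it in both. The type IV pairing of α5 with α6 was complete in pup 1 and had α5 alone in pup 3, and the pairing of α3, α4 and α5 had α5 alone in each.

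Type V had Col5a1 and Col5a2 in pup 1 and Col5a2 in pup 3, and type VI had 2 of 3 chains in each pup. Type IX had 1 of 3 chains in pup 1 and 2 of 3 in pup 3. Type XI had 2 of 3 in each pup, Col11a1 with Col2a1 in pup 1 and Col11a1 with Col11a2 in pup 3. The balance within a type also moved, as for type VIII, where Col8a1 exceeded Col8a2 1.93 times in pup 1 and 15.7 times in pup 3.

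Collagen chains are modified and folded in the endoplasmic reticulum before secretion. Of 18 matched genes of collagen biosynthesis and secretion, 8 were detected in both pups, 3 in pup 1 alone, 3 in pup 3 alone and 4 in neither. Beside this and each partner list below stand the shares over all nuclear protein-coding genes. These were 37.8% in both pups, 12.3% in pup 1 alone and 5.45% in pup 3 alone. The highest by mean over the pups were Ppib, a prolyl isomerase that speeds folding, at 467 TPM in pup 1 against 375 TPM in pup 3, P4hb, the β subunit of prolyl 4-hydroxylase, at 256 and 263 TPM, and Mia3, which helps export large cargo, at 86.0 and 105 TPM. Ppib and P4hb serve many secreted proteins. The catalytic subunits P4ha1 and P4ha2 were at 0 in both pups, and P4ha3 had 233 counts in pup 1 and 0 in pup 3. Serpinh1, the collagen-specific chaperone HSP47, had 104 TPM in pup 1 against 33.2 TPM in pup 3. Of the complex that hydroxylates 1 proline near the chain end, Crtap had 29.8 TPM in pup 1 and 0 in pup 3, and P3h1 had 0.0903 TPM in pup 1 against 27.5 TPM in pup 3.

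Outside the cell, of 15 processing and crosslinking genes 6 were detected in both pups, 1 in pup 1 alone, 2 in pup 3 alone and 6 in neither. Sparc, a collagen-binding matrix protein, was highest at 655 TPM in pup 1 against 1213 TPM in pup 3. Pcolce, which enhances removal of the C-terminal propeptide, had 55.5 and 7.89 TPM, and the lysyl oxidase family member Loxl3 had 16.0 and 22.2 TPM. The crosslinking enzymes Lox and Loxl1 alternated, with Lox at 0 in pup 1 and 7.40 TPM in pup 3 and Loxl1 at 6.10 TPM in pup 1 and 0 in pup 3. Pxdn, the peroxidase that forms the sulfilimine bond of type IV collagen, had 1 count in pup 1 against 1227 in pup 3.

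Of 13 degradation genes, 6 were detected in both pups, 1 in pup 1 alone, 2 in pup 3 alone and 4 in neither. The protease inhibitors Timp4 (133 and 94.9 TPM) and Timp3 (113 and 23.6 TPM) were highest by mean over the pups, followed by Ctsk, a collagen-cleaving cathepsin, at 0.666 TPM in pup 1 against 84.5 TPM in pup 3. The gelatinase Mmp2 had 1 count in pup 1 and 0 in pup 3. Of 11 receptor genes, 3 were detected in both, 2 in each pup alone and 4 in neither. Adgrg1, a receptor for type III collagen in the developing brain, had 117 and 103 TPM, Itgb1, the β1 integrin subunit, 63.5 and 61.9 TPM, and Ddr1, a collagen-activated kinase, 20.8 and 24.4 TPM. These 3 receptors were close in the pups, while Itga2, a collagen-binding integrin subunit, had 243 counts in pup 1 against 0 in pup 3 and stayed under 4-fold on the scale with the pseudocount of 1 TPM.

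**Figure D5:**
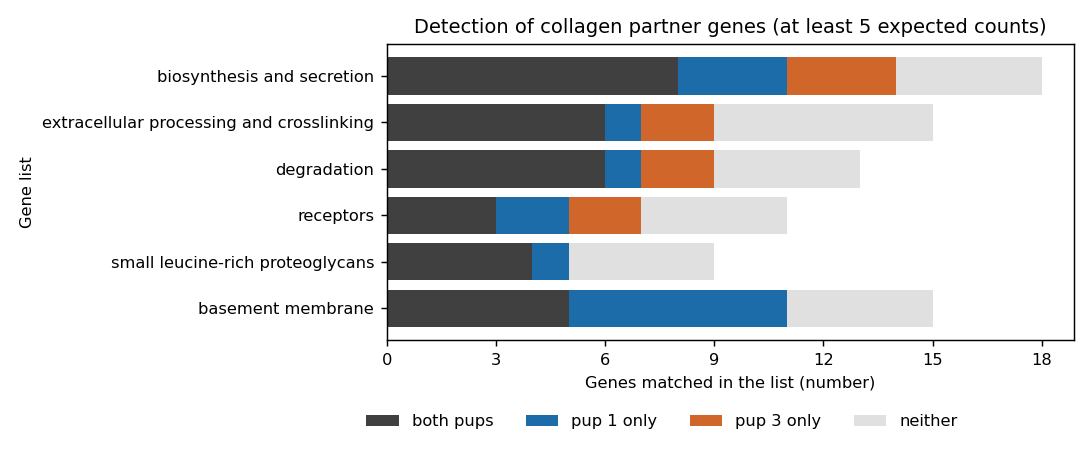
Number of genes in each of the 6 lists of collagen partners that were detected (at least 5 expected counts) in both pups, in pup 1 only, in pup 3 only or in neither. Biosynthesis has the most genes in both pups (8 of 18), and the basement membrane list has 6 genes in pup 1 only and none in pup 3 only.

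Small leucine-rich proteoglycans bind fibrils and regulate their spacing. Of 9 genes 4 were detected in both pups, 1 in pup 1 alone and 4 in neither. Dcn had 84.6 and 167 TPM, Bgn 43.7 and 31.1 TPM, and Ogn 22.0 and 29.4 TPM, while Lum had 1 count in pup 1 and 0 in pup 3. Of 15 basement membrane partners of type IV collagen, 5 were detected in both pups, 6 in pup 1 alone (background 12.3%), none in pup 3 alone (5.45%) and 4 in neither. Agrn had 61.4 and 119 TPM, and the linkers Nid1 and Nid2, which tie laminin to type IV collagen, 35.1 and 37.8 TPM and 8.69 and 17.6 TPM. The 6 detected in pup 1 alone were laminin chains, with Lamc1 at 18.6 TPM in pup 1 and 0 in pup 3 and Lama4 at 11.5 and 0.0112 TPM. Lamb2 was detected in both pups with 488 and 16 counts, and Lama2, Lama3, Lama5 and Lamb1 in neither. Past 4-fold, 5 of the 15 were higher in pup 1 and 0 in pup 3, beside 23.6% and 16.2% of the protein-coding genes with 50 counts in a library. The bases are unlike, because Lama1, Lama2, Lama3, Lama5 and Lamb1 did not reach 50 counts and could not be called. Over all 6 lists, 32 of 81 matched genes were detected in both pups (39.5%), beside the background of 37.8%.

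Markers of the cell types that could carry these transcripts were read beside them. For every marker list here and below, the shares over all protein-coding genes were 37.8% in both pups, 12.3% in pup 1 alone and 5.45% in pup 3 alone. Of 12 meningeal fibroblast markers, 7 were detected in both pups, 2 in pup 3 alone and 3 in neither, with a summed level of 2619 TPM in pup 1 against 4814 TPM in pup 3. Ptgds alone supplied 2333 and 4325 TPM of these sums. Past 4-fold, 2 of the markers were higher in pup 1 (Foxc1 and Islr) and 2 in pup 3, and Foxd1 stood at 0 in both pups. The shares of protein-coding genes with 50 counts in a library were 23.6% and 16.2%, while Lum, Cyp1b1 and Foxd1 did not reach 50 counts. Of 12 endothelial markers 4 were detected in both, 5 in pup 1 alone and 2 in pup 3 alone (318 and 227 TPM). Of 10 pericyte and smooth muscle markers 7 were detected in both (215 and 323 TPM), with Myh11 at 0 in both.

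Markers of cartilage and bone, the main source of Col2a1, Col9a1 and Col11a2, were detected in pup 1 for 3 of 10 (41.2 TPM, from Cnmd, Matn1 and Hapln1) and in pup 3 for 0 of 10. Acan, Comp, Runx2 and Sp7 were at 0 in both pups. Of 7 skin and skeletal muscle markers 1 was detected in both and 3 in pup 1 alone (31.2 and 44.9 TPM), with Krt5, Krt14 and Myog at 0. Of the chains known from cartilage, Col2a1 was detected in pup 1 like the cartilage markers. Col11a2 (3 and 22 counts) and Col9a2 (3 and 188 counts) were higher in pup 3, and Col9a1 and Col10a1 were at 0 in both. Col9a3 (679 and 2038 counts) and Col11a1 (1342 and 958 counts), of the same type IX and XI collagens, were detected in both pups. For all these cell types, their part in the collagen differences was not tested.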

How the data were processed

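Gene and transcript tables of 2 libraries were used. Per the notes deposited with the tables they were made on mm10 with annotation M4 from transcriptome alignments; the sources used here name no aligner, version or strand use. Per the file headers the authors gave expected counts, TPM and FPKM per gene, and the percent of a gene's TPM per transcript, with interval bounds that were not used. The total expected count was 35462381 and 29866728.

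Symbols came from GENCODE M21 by stable identifier (42462 of 43346 genes, 98.0%). TPM was rescaled over 43309 nuclear genes. Detection needed 5 expected counts; the 4-fold call used a pseudocount of 1 TPM and 50 counts in 1 library. Where a library had 0 counts the floor was 3. Promoter windows and starts are from RefSeq, GRCm38.p6. Members, lists, thresholds and naming rule were chosen with earlier results of these data known. The rule took all members, the 3 highest genes of each partner list and promoters of head-to-head pairs; further partner genes, the Col1a2 and Col3a1 promoters, the regional marker lists, the grouping of chains into molecules and counts per longest transcript were added after seeing the data. Of the listed symbols 1 (Ctage5) had no match. Alternatives included other thresholds, deposited TPM and FPKM, CPM, and edgeR 4.0.16 and DESeq2 1.42.0 scaling of rounded expected counts, with no test. Python 3.11.15, pandas 2.3.3, scipy 1.17.1 and R 4.3.3 were used.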

Additional observations from a re-analysis of the deposited data

How the results depend on the processing

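Of 63 recomputed values, 41 stayed and 22 moved, under a rule set for each kind of value. Counts stayed within 1.5 times, median log2 ratios within 0.05 and class sums within the SD of the pups. Each of 2 libraries always lies within their SD, so the class sums of a library alone could not move. The SD of the type IV sums was 0.0040 TPM, so nearly any change of scale moved them. The tally therefore does not measure stability. Counted in 1 library, 20 to 20 chains were detected, against 13 in both; other detection thresholds and thinning stayed within 1.5 times. The 11 chains past 4-fold became 7 with deposited FPKM, 2 with a pseudocount of 5 TPM, 20 at 2-fold and 7 at 8-fold, and the 4472 protein-coding genes became 2631 with a pseudocount of 5 and 6962 at 2-fold. The median log2 ratio of detected chains, 0.17, was 0.11 with FPKM, 0.25 with CPM, 0.12 with TMM, 0.0904 with DESeq2 size factors, 0.23 per longest transcript, 0.0374 with a pseudocount of 5 and 0 over all 44 chains. The same median over protein-coding genes detected in both pups went from 0.14 to 0.02 with TMM and 1.83e-05 with DESeq2 factors. Mean summed levels were 44.5 (deposited TPM), 29.85 (FPKM) and 62.9 (per longest transcript) for type IV against 49.9, then 134, 90.2 and 168 for fibrillar chains against 151, and 75.4 with FPKM for other chains against 126. With each library alone the sums ranged from 142 to 160 for fibrillar, 49.92 to 49.93 for type IV and 106 to 145 for other chains. Apart from the construction of each scale, the cause was not tested. No paired analysis was possible because there was 1 group. With 1 library per pup, a chain at 0 cannot be called absent from the tissue.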

Other observations

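Besides Col4a1 and Col4a2, described above, the members of 3 sets of nearby collagen genes differed in their pattern across the pups. Col4a5 and Col4a6 were both higher in pup 1, though by unlike factors. Col6a2 (chr10:76595762-76623630) and Col6a1 (chr10:76708792-76726168) lie on the minus strand of chromosome 10, and Col6a1 had 1742 and 1 counts in pup 1 and pup 3 where Col6a2 had 0 and 302. On chromosome 1, Col3a1 (chr1:45311538-45349706) had 4293 and 1707 counts where the nearby Col5a2 (chr1:45374321-45503282) had 838 and 1419. Also on chromosome 1, Col19a1 (chr1:24261890-24587472) had 1221 and 0 counts, while the nearby Col9a1 (chr1:24177610-24252684) was at 0 in both pups. These pairs were chosen after their values were seen and carry no test.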
